A study of Sus scrofa with 12 samples.

Results

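The genes described here encode the anaphase-promoting complex, its activators, its EMI inhibitors, and the separase and securin pair that the complex sets free. They were chosen by name as a list of 9 genes: FBXO43, FBXO5, CDC20, FZR1, PTTG1, ESPL1, CDC16, CDC23 and CDC27. Of these, 7 were matched to an identifier among the 31908 in the files, and FBXO43 and PTTG1 were not analysed here. Of the 7 matched genes, 5 reached a mean of at least 1 FPKM over all libraries (fragments scaled to transcript length and to the mapped fragments of the library) and entered the fit, which covered 7013 genes. FZR1 and CDC23 stayed under that level and were compared separately.

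Pooled porcine oocytes taken at 0h, 22h or 46h of maturation in vitro gave 4 libraries per stage and 12 in all. All groups came from antral follicles of prepubertal gilts collected at a slaughterhouse. Oocytes inside their cumulus cells were cultured in a TCM199 medium with porcine follicular fluid, EGF, PMSG and HCG, and every group was stripped of cumulus cells before lysis. The series' description assigns the groups to the germinal vesicle stage, the time before metaphase I and metaphase II, with an hour for the middle group that is slightly later than the 22h of the sample labels. These stages come from earlier counts of nuclei at nearby times and were not scored in these libraries, and not every oocyte need have reached its stage. Each library held a pool of oocytes, so oocytes at other stages cannot be told apart from the rest, and nothing in the labels says that the 4 libraries of a stage came from separate animals. The p-values below therefore measure only the spread between these libraries, which may be technical.

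The anaphase-promoting complex is a large ubiquitin ligase that marks cyclin B and securin for destruction. CDC20 and FZR1 (also called CDH1) are the activators that bring substrates to it, and FBXO5 (EMI1) and FBXO43 (EMI2) are inhibitors that hold it back. Once securin is destroyed, separase (ESPL1) cuts the cohesin that holds chromosomes together, and in oocytes this releases homologous chromosomes at the first division and sister chromatids at the second. In the oocyte, FZR1 is known for keeping cyclin B low during prophase arrest, and EMI2 for the arrest at metaphase II.

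The libraries were read from an oligo-dT primer by the SMART-Seq2 method, so cDNA started at the poly(A) tail. Maturing oocytes transcribe little and lengthen or shorten the tails of stored mRNAs. A change in the amount of an mRNA and a change in how well its tail was primed cannot be told apart in these values. For this reason the 3′ ends of the matched genes are shown, read from the RefSeq annotation of Sscrofa11.1 for 1 transcript of each gene. The last 100 bases of each transcript were searched on the transcript strand for the polyadenylation hexamers AATAAA and ATTAAA and for the letters TTTTAT and TTTTAAT, which are the core of the cytoplasmic polyadenylation element. An element and a hexamer may share letters, and in the windows of these genes they did not overlap. Among 16828 annotated genes with a 3′ UTR of at least 100 bases, 71.1% held a hexamer in this window, 17.4% held the element and 13.6% held both.

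The letters TTTTAT were found in the windows of FBXO5, ESPL1 and CDC23, with 57, 31 and 0 bases between them and the last hexamer. They are printed in capitals, 5′ to 3′ on the transcript strand, for FBXO5 at chr1:13478419-13478442 (plus strand), ESPL1 at chr5:18509843-18509866 (plus strand) and CDC23 at chr2:140211345-140211368 (minus strand).
FBXO5: aatgtttatTTTTATatgtcaaag
ESPL1: tccccagtgTTTTATgaaatgttt
CDC23: gacgcttcaTTTTATattaaagaa

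The windows of CDC20, FZR1, CDC16 and CDC27 held a hexamer and neither form of the element. Their hexamers are printed in capitals in the same way, for CDC20 at chr6:167886277-167886300 (minus strand), FZR1 at chr2:75122606-75122629 (minus strand), CDC16 at chr11:79111730-79111753 (plus strand) and CDC27 at chr12:16882242-16882265 (plus strand).
CDC20: tacttttctAATAAAgccacatgt
FZR1: gtgcgtaacATTAAAgtgtatgat
CDC16: acgaagtgaAATAAAgaaggtaaa
CDC27: aaaagtccaAATAAAttacttttg
These matches describe letters in 1 annotated transcript of each gene and do not show that a site is used in pig oocytes.

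As a check of the cell type, 15 of 16 oocyte markers were matched and all 15 entered the fit, with a summed level of between 28644 and 38807 FPKM at 0h, between 35998 and 42025 at 22h, and between 34229 and 40092 at 46h. Its makeup changed: the mean of BTG4 was 15762 FPKM at 0h and 28330 at 46h and that of WEE2 was 1283 and 2890, while GDF9 stood at 984 and 37.8, ZP3 at 2967 and 95.5, OOEP at 1473 and 123 and ZAR1 at 140.3 and 0.703 FPKM. A level sum near that of 0h at 46h therefore does not mean that single oocyte markers kept their level. Of 20 cumulus and granulosa cell markers, 18 were matched and 14 stayed under 1 FPKM in every library, while LHCGR, INHA and AMHR2 were listed at 0 throughout. The summed level of all 18 was between 47.2 and 99.5 FPKM at 0h, between 63.6 and 96.4 at 22h, and between 121 and 156 at 46h, nearly all of it from STAR, KITLG, VCAN and SERPINE2. The other 14 together reached at most 0.91 FPKM in any library, with 0.03 to 0.3 FPKM at 46h. The share of the FPKM total held by 13 protein genes of the mitochondrial genome was 1.79% to 3.76% at 0h, at least 8.06% at 22h, and between 12.8% and 16.7% at 46h. With TPM computed without the mitochondrially encoded genes, every call of the 5 fitted genes was the same, with log2 fold changes from 0h to 46h of -1.66 for FBXO5, 1.07 for CDC20 and 1.61 for CDC16. The number of reads is not known from the files. The library 0h replicate 4 had the lowest correlations within its stage (r of 0.934 to 0.970 on log2(FPKM + 1)), and 22h replicate 1 followed (0.961 to 0.967). Every call for the 5 fitted genes of the list of 9 was the same without these 2 libraries.

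FBXO5 (ENSSSCG00000004077, chr1:13466961-13478496, plus strand), the EMI1 inhibitor, had the highest mean FPKM of the matched genes in all 3 stages. Its level was 571, 605, 374 and 184 FPKM in the 4 libraries at 0h, 318, 645, 671 and 814 FPKM at 22h, and 133, 155, 74.9 and 119 FPKM at 46h. Every 46h library lay under every earlier one, whereas the 0h and 22h libraries overlapped widely. The mean fell from 612 ± 209 FPKM (SD, n = 4) at 22h to 121 ± 33.8 at 46h, a log2 fold change of -2.30 (SE 0.376, adjusted p = 0.000171, limma with Benjamini-Hochberg adjustment over the 7013 genes). Against the 0h mean of 433 ± 195 FPKM the 46h level gave a log2 fold change of -1.74 (adjusted p = 0.000996). FPKM values are shares of a library, so a loss of this mRNA and a change in the total mRNA of an oocyte cannot be told apart. Between 0h and 22h the log2 fold change of FBXO5 was 0.56 with an adjusted p of 0.277 by limma, which did not pass. This value was 0.19 without 0h replicate 4 (adjusted p = 0.648, limma) and 0.85 without 22h replicate 1 (adjusted p = 0.0917). Here and below, passing means both an adjusted p under 0.05 and a fold change over 1.5, and all log2 fold changes are of log2(FPKM + 1), which understates the change of genes near 1 FPKM.

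CDC20 (ENSSSCG00000003949, chr6:167886266-167890587, minus strand), the activator of the complex at both meiotic divisions, rose at 22h and was also above its 0h level at 46h. At 0h its libraries held 25.6, 22.1, 21.2 and 23.9 FPKM, with a mean of 23.2 ± 1.99 and the narrowest relative spread of the matched genes at that stage. At 22h they held 27.6, 42.3, 79.0 and 67.3 FPKM, and at 46h 39.7, 42.6, 66.5 and 41.8 FPKM. All 8 later libraries lay above all 4 libraries of 0h, and the 22h and 46h libraries overlapped. The log2 fold change from 0h was 1.08 at 22h (limma, SE 0.277, adjusted p = 0.00923), and by 46h it was 0.98 (adjusted p = 0.00662), or 1.49 with quantile normalization. Between 22h and 46h CDC20 gave -0.10 (adjusted p = 0.788), and the sign of this small difference turned to a gain of 0.25 with median-of-ratios scaling and of 0.29 with quantile normalization, neither past the thresholds.

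FZR1 (ENSSSCG00000013481, chr2:75122599-75164134, minus strand), the activator linked to prophase arrest, was the lower of the activators at every stage. It was listed at 1.31, 0.78, 0.85 and 1.47 FPKM at 0h, 0.58, 0.34, 1.09 and 0.39 FPKM at 22h, and 0, 0.07, 0.03 and 0.2 FPKM at 46h. No 46h library reached the lowest 22h or 0h library, while 22h and 0h overlapped. In an exact two-sided permutation test of 4 against 4 libraries, p was 0.0286 for 46h against 22h and for 46h against 0h, which is the smallest such a test can give, and 0.114 for 22h against 0h (6 such tests were run, p not adjusted). When genes of any level were fitted, FZR1 was among 17633 genes tested, with a log2 fold change of -0.96 for 46h against 0h (adjusted p = 0.000511, limma) and -0.55 for 46h against 22h (adjusted p = 0.0282), the latter under the fold threshold. These sizes rest on the pseudocount of 1 FPKM: with 0.1 FPKM the differences of mean log2 values were -2.86 and -2.01. FZR1 values this close to 0 rest on few fragments, and the depth behind them is not known.

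**Figure D1:**
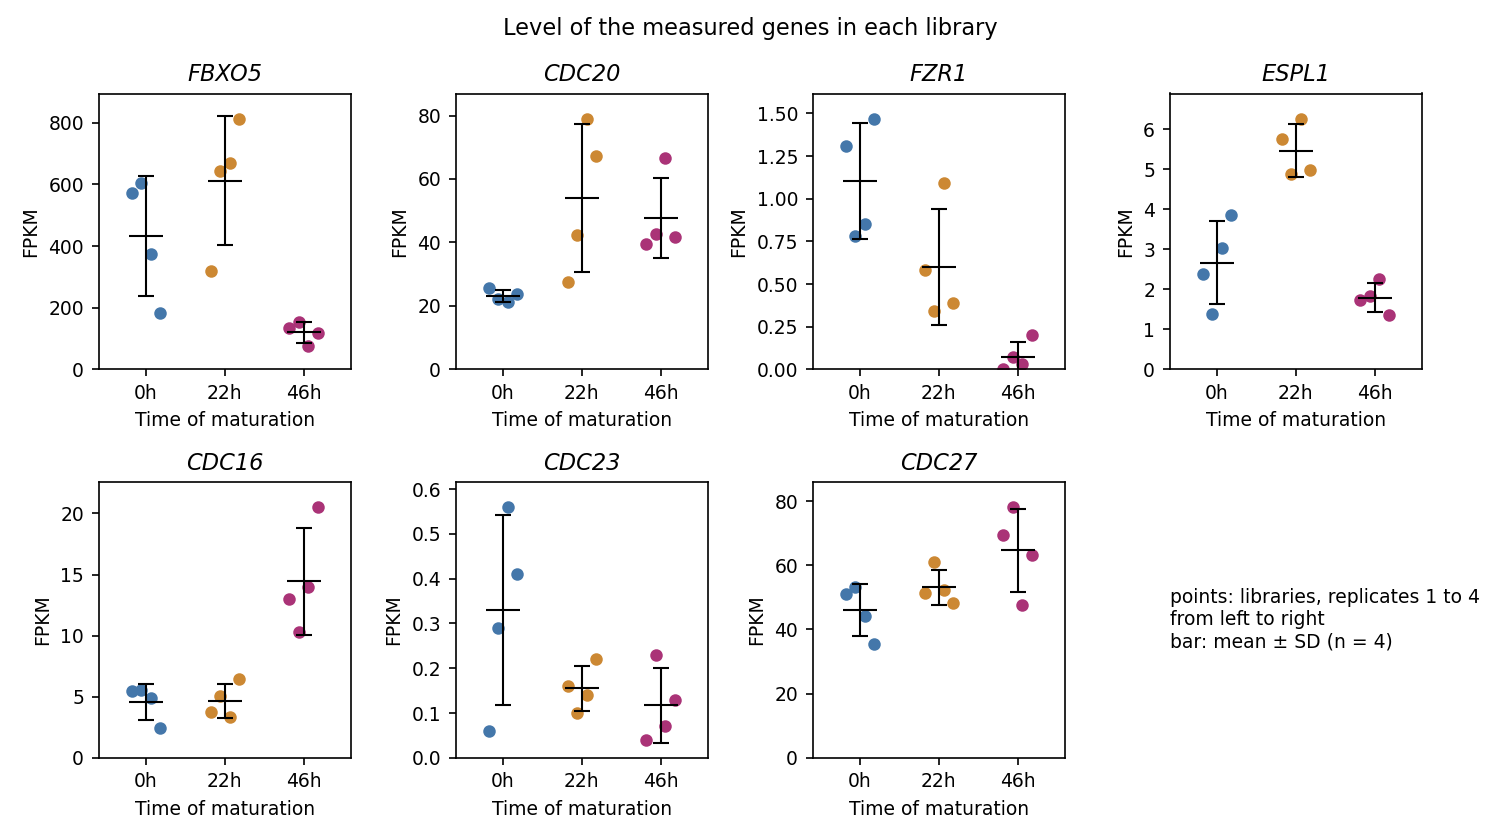
Level of each matched gene in FPKM (linear axes that start at 0, a scale of its own for each gene) at 0h, 22h and 46h of maturation; points are libraries and bars are the mean ± SD of 4 libraries. The 46h libraries of FBXO5 lie between 74.9 and 155 FPKM, below all others, those of CDC16 lie between 10.3 and 20.5 FPKM, above all others, and ESPL1 stands highest at 22h.

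ESPL1 (ENSSSCG00000000265, chr5:18486969-18509913, plus strand), the protease separase, was highest at 22h. Its libraries held 2.38, 1.39, 3.03 and 3.85 FPKM at 0h, 5.75, 4.88, 6.27 and 4.98 FPKM at 22h, and 1.74, 1.83, 2.25 and 1.35 FPKM at 46h. The 22h libraries stood above the other 8, and those of 0h and 46h overlapped. The rise from 2.66 ± 1.04 FPKM at 0h to 5.47 ± 0.660 at 22h gave a log2 fold change of 0.86 (SE 0.202, adjusted p = 0.00535, limma), and the fall to 1.79 ± 0.369 FPKM at 46h gave -1.22 (adjusted p = 0.000196), or -0.71 with quantile normalization, again past both thresholds. From 0h to 46h the log2 fold change of ESPL1 was -0.35, with an adjusted p of 0.141 by limma, and turned to 0.33 with quantile normalization, without passing. It was -0.54 without 0h replicate 2 (adjusted p = 0.0159, limma, under the fold threshold) and -0.20 without 0h replicate 4 (adjusted p = 0.364). Its regulator securin, the product of PTTG1, was not analysed here, so a ratio of securin to separase was not formed.

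The CDC16, CDC23 and CDC27 proteins belong to the tetratricopeptide-repeat arm of the complex, on which the activators dock. The FPKM values of their mRNAs differed in level and in course. CDC27 (ENSSSCG00000017308, chr12:16810868-16882271, plus strand) held 51.1, 53.3, 44.4 and 35.6 FPKM at 0h, 51.5, 61.0, 52.2 and 48.1 FPKM at 22h, and 69.5, 78.1, 47.7 and 63.3 FPKM at 46h. CDC16 (ENSSSCG00000020899, chr11:79084243-79111758, plus strand) held 5.45, 5.59, 4.89 and 2.43 FPKM at 0h, 3.79, 5.06, 3.32 and 6.46 FPKM at 22h, and 13.0, 10.3, 13.9 and 20.5 FPKM at 46h. CDC23 (ENSSSCG00000014325, chr2:140211334-140245728, minus strand) was listed at 0.06, 0.29, 0.56 and 0.41 FPKM at 0h, 0.16, 0.1, 0.14 and 0.22 FPKM at 22h, and 0.04, 0.23, 0.07 and 0.13 FPKM at 46h. Thus in each library CDC27 was above CDC16 and CDC16 above CDC23, and the 46h libraries of CDC16 stood apart from all earlier ones.

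CDC16 rose at 46h by 1.44 on the log2 scale against 22h (SE 0.255, adjusted p = 0.000343, limma) and by 1.47 against 0h (adjusted p = 0.000165), from means of 4.66 ± 1.41 and 4.59 ± 1.47 FPKM to 14.4 ± 4.35. Between 0h and 22h its log2 fold change was 0.03 (adjusted p = 0.936), and its sign depended on single libraries. CDC27 differed by less, with means of 46.1 ± 7.99, 53.2 ± 5.47 and 64.6 ± 12.9 FPKM and overlapping libraries in every comparison. For CDC27 at 46h against 0h the log2 fold change was 0.47 (SE 0.184, adjusted p = 0.0362, limma), under the fold threshold. It passed both thresholds with median-of-ratios scaling (0.87), with quantile normalization (0.95) and without 46h replicate 3, its lowest library at that stage (0.61). The CDC23 libraries overlapped in every comparison, with exact two-sided permutation p of 0.2, 0.429 and 0.143 for 22h against 0h, 46h against 22h and 46h against 0h.

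Set against all genes tested, the genes described here were called at 22h against 0h in 2 of 5 cases (CDC20 and ESPL1, both higher), where 26.7% of all genes were called, 7.84% higher and 18.9% lower. At 46h against 22h, 3 of 5 were called (CDC16 higher, FBXO5 and ESPL1 lower), against 42.4% of all genes, 9.87% higher and 32.6% lower. At 46h against 0h, 3 of 5 were called (CDC20 and CDC16 higher, FBXO5 lower), against 55.9% of all genes, 16.8% higher and 39.1% lower. The shares among 5 genes are thus close to those of all genes in the comparisons with 46h, and the counts are too small to set these genes apart. Their median log2 fold change was 0.56, -0.10 and 0.47 in the 3 comparisons, beside medians of -0.00115, -0.257 and -0.250 over all genes. A median of 5 genes rests on single values: at 22h against 0h it was FBXO5's own, and went down to 0.19 without 0h replicate 4 and up to 0.84 without 22h replicate 1. With each library left out in turn it ranged from -0.38 (without 22h replicate 1) to 0.12 (without 22h replicate 3) for the step between 22h and 46h, while values between 0.36 and 0.61 were found over the whole period.

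The median gene moved with the scaling. In the values as deposited its log2 fold change from 0h to 46h was -0.250, beside 0.0592 with median-of-ratios scaling, 0.372 with quantile normalization and -0.345 as TPM, and calls in the direction of a rise made up 30.1%, 46.9%, 61.7% and 25.6% of all calls. Measured from the median gene of the same scaling, the log2 fold change of FBXO5 from 0h to 46h was -1.49 as deposited, -1.40 with median-of-ratios scaling, -1.87 with quantile normalization and -1.51 as TPM. On the same footing CDC20 gave 1.23, 1.31, 1.12 and 1.23, and CDC16 gave 1.72, 1.75, 1.72 and 1.76. The changes of these 3 genes were thus larger than the shift between scalings, whereas that of CDC27 (0.72, 0.81, 0.58 and 0.72 from the median gene) lay near the fold threshold.

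**Figure D2:**
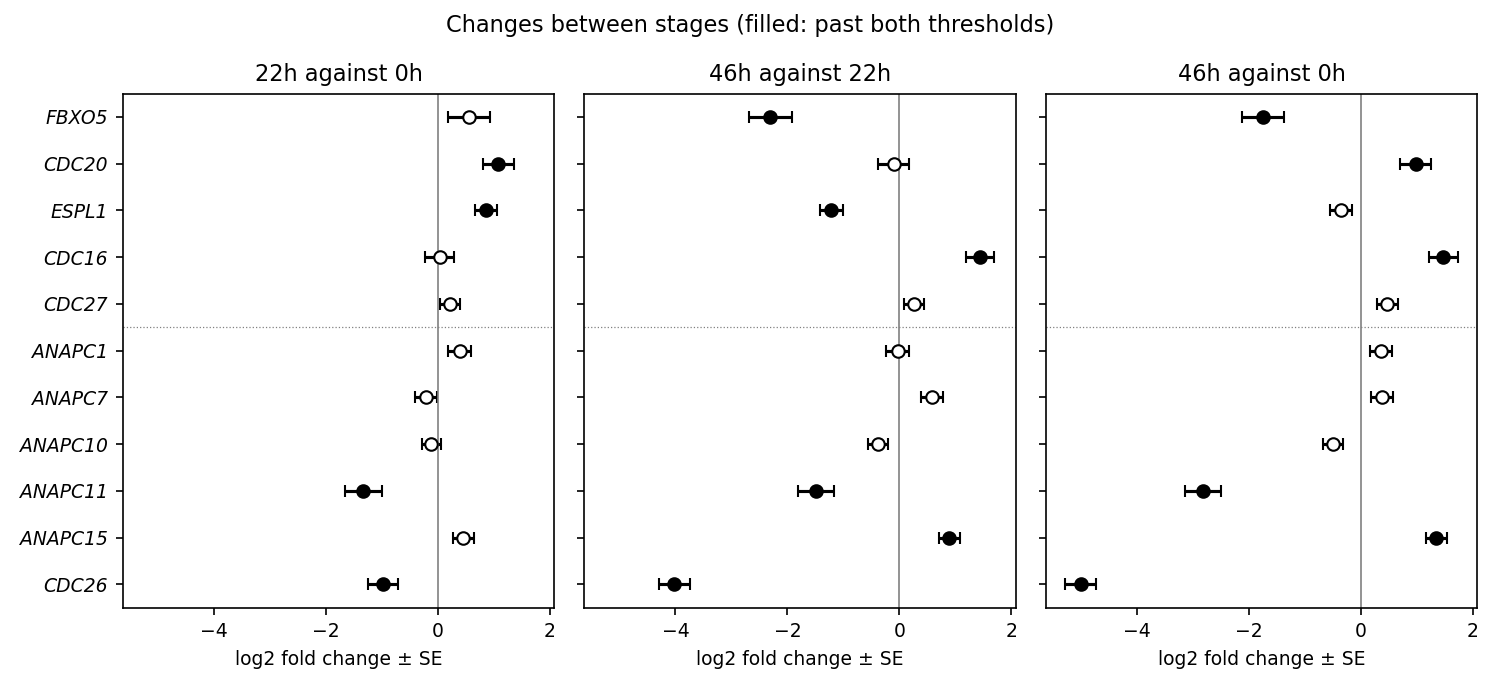
Log2 fold change ± SE (horizontal axis, on log2(FPKM + 1)) of the 5 genes in the fit, above the dotted line, and of 6 other subunits, below it, for the 3 comparisons; filled points passed both thresholds. FBXO5 and CDC16 lie on opposite sides of 0 in both comparisons with 46h, and CDC26 has the lowest values at 46h.

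A ratio of FPKM values within a library is not altered by a single scaling factor for that library, though quantile normalization can alter it. A difference between the genes in how well their tails were primed also stays in the ratio. The ratio of FBXO5 to CDC20 was 22.3, 27.4, 17.7 and 7.70 in the 0h libraries. It was 11.5, 15.3, 8.49 and 12.1 at 22h, and 3.35, 3.64, 1.13 and 2.85 at 46h. FBXO43 and FZR1 are not part of this ratio. The geometric mean of this ratio was 17.0, 11.6 and 2.50, and the highest 46h library lay below the lowest of any earlier library. The ratio of CDC16 to CDC27 had geometric means of 0.0958, 0.0850 and 0.220, with values between 0.0684 and 0.110 at 0h, between 0.0637 and 0.134 at 22h, and between 0.131 and 0.324 at 46h, so that the 46h libraries lay above all of 0h and overlapped narrowly with 22h. Both ratios were chosen after their values had been seen and carry no test.

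**Figure D3:**
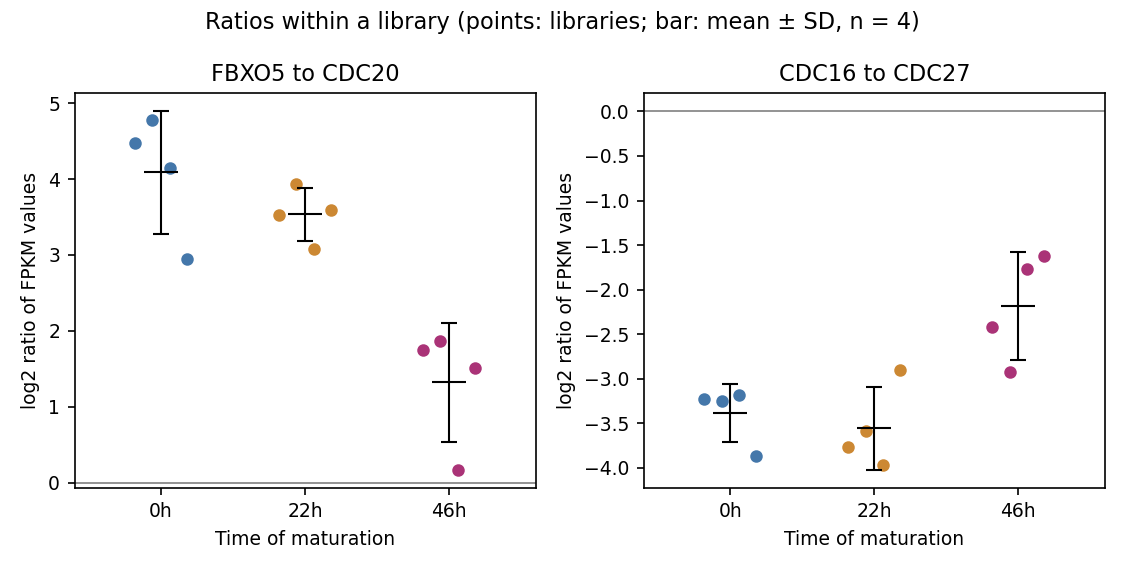
Ratio of FBXO5 to CDC20 and of CDC16 to CDC27 within each library, as log2 of the ratio of FPKM values (vertical axis); points are libraries and bars are the mean ± SD of 4 libraries. The 46h libraries of FBXO5 to CDC20 have a mean of 1.32 ± 0.78, below 4.09 ± 0.80 at 0h and 3.54 ± 0.35 at 22h.

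The ratios planned for testing were limited by the low values of CDC23 and FZR1. The ratio of CDC20 to FZR1 was not tested because FZR1 was listed at 0 in 1 library. The ratio of CDC27 to CDC23 had geometric means of 181, 356 and 665, and that of CDC16 to CDC23 had 17.4, 30.2 and 146. The 0h means rested on 0h replicate 1, with ratios of 851 and 90.8, and were 108 and 9.99 without it. No stage comparison passed, with exact two-sided permutation p of 0.114 to 0.286 for CDC27 to CDC23 and of 0.0571 to 0.4 for CDC16 to CDC23 (6 tests, p not adjusted). CDC23 values are given to 2 decimals only, so that a value such as 0.04 FPKM carries a coarse ratio.

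The FPKM values of the other subunits of the complex were uneven as well. Differences in FPKM between genes may also come from how well each tail was primed or from the gene models. This was not tested. Of 11 further subunits, 10 were matched and 6 entered the fit. CDC26, a small subunit that stabilises CDC16, had a mean of 94.8 ± 39.3 FPKM at 0h (69.3 to 152), 47.2 ± 19.1 at 22h (33.7 to 75.5) and 1.84 ± 0.294 at 46h (1.47 to 2.14). CDC26 thus fell in both steps, by log2 fold changes of -0.98 (adjusted p = 0.014, limma) and -4.02 (adjusted p = 2.93e-08), and its 46h libraries lay far below all earlier ones. CDC16 and its partner CDC26 therefore moved in opposite directions between 22h and 46h.

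ANAPC11, the RING subunit of the catalytic core that binds the ubiquitin-carrying enzymes, fell as well. Its mean went from 58.0 ± 23.9 FPKM at 0h to 22.3 ± 8.44 at 22h and 7.36 ± 3.35 at 46h (log2 fold changes of -1.33 and -1.49, adjusted p = 0.00709 and 0.00182, limma), with no overlap between stages. ANAPC15, which helps CDC20 to leave the checkpoint complex, rose from 36.6 ± 4.49 FPKM at 22h to 70.6 ± 22.4 at 46h, by 0.89 on the log2 scale (adjusted p = 0.00151). From 0h, where it was 26.3 ± 1.33 FPKM, ANAPC15 gave 0.45 at 22h (adjusted p = 0.085), which did not pass. ANAPC1, the scaffold, together with ANAPC7 and ANAPC10 passed in no comparison. ANAPC2, the cullin subunit that pairs with ANAPC11, was listed at 0 in 11 of 12 libraries and at 0.06 FPKM in the other, ANAPC13 ranged from 0 to 0.32, ANAPC4 from 0 to 1.3 and ANAPC5 from 0.18 to 1.47 FPKM.

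Over all subunits, 14 were listed and 8 were in the fit, CDC16 and CDC27 among them. Of these 8, none rose and 2 fell at 22h against 0h, and 2 rose and 2 fell in each comparison with 46h: CDC16 and ANAPC15 higher, CDC26 and ANAPC11 lower. Beside these counts, 7.84% of all genes were called higher and 18.9% lower at 22h against 0h, 9.87% and 32.6% at 46h against 22h, and 16.8% and 39.1% at 46h against 0h, so the number of falls was not above that of all genes in the comparisons with 46h. The median log2 fold change of the 8 was -0.04, 0.11 and 0.37 in the 3 comparisons. By FPKM, which need not give the order of mRNA amounts, FBXO5 came first at 0h. CDC26, ANAPC11, ANAPC7 and CDC27, which overlapped as neighbours, followed. Then came ANAPC15 and CDC20, and then ANAPC1, ANAPC10, CDC16, ESPL1 and FZR1, again with overlapping neighbours. At 22h CDC20 had moved up beside CDC27 and ANAPC7, with overlapping libraries. At 46h the FBXO5 libraries overlapped those of ANAPC7. CDC16 lay between CDC20 above and ANAPC1 below without overlapping either, but its libraries overlapped those of ANAPC11.

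**Figure D4:**
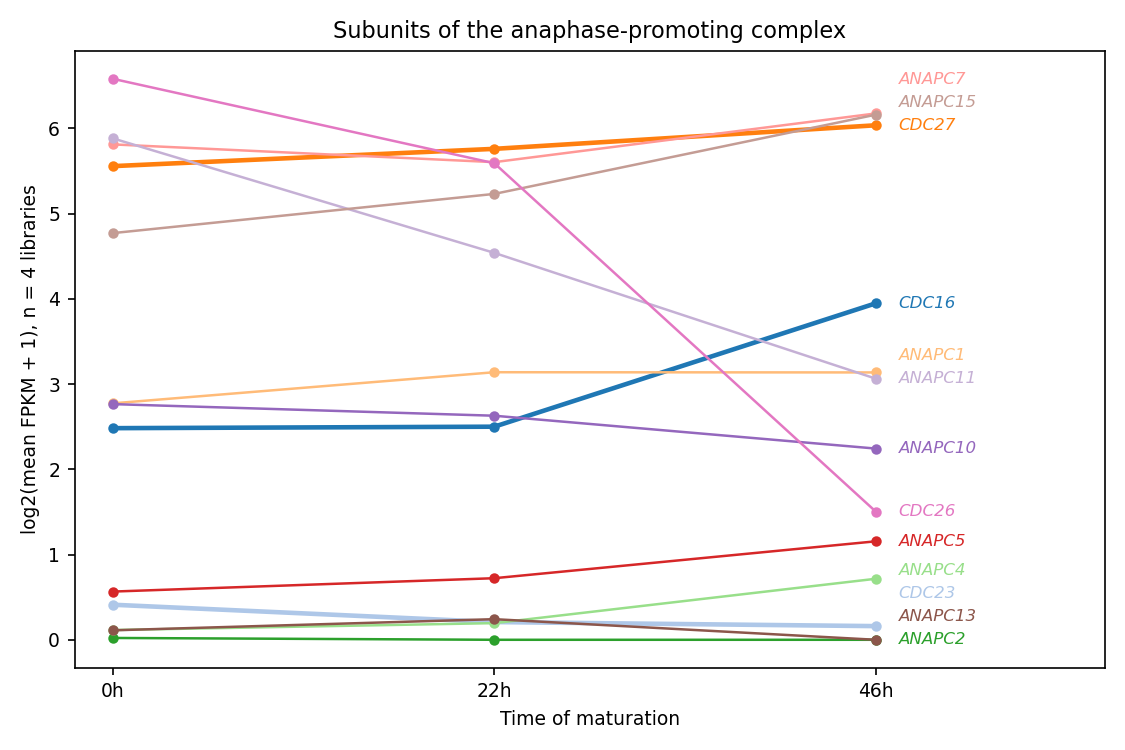
Mean level of the 13 matched subunits of the complex at each stage, as log2 of the mean FPKM of 4 libraries plus 1 (vertical axis); thick lines are CDC16, CDC23 and CDC27. The CDC26 line drops from a mean of 94.8 to 1.84 FPKM while that of CDC16 climbs from 4.59 to 14.4 FPKM.

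The ubiquitin-conjugating enzymes that serve the complex also parted. UBE2C, which starts ubiquitin chains on substrates, had 1253 ± 381 FPKM at 0h, 1363 ± 325 at 22h and 437 ± 40.5 at 46h, and fell by 1.61 on the log2 scale in the second step (a log2 fold change of -1.61, adjusted p = 0.000102, limma). UBE2D1, which can also start chains, rose from 8.27 ± 0.927 to 16.3 ± 3.93 FPKM in that step (0.87, adjusted p = 0.000776). At 22h against 0h neither passed. UBE2S, which lengthens chains, was listed between 0 and 0.81 FPKM and was not in the fit. FBXO5 and UBE2C were each highest in mean at 22h and lowest at 46h.

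Of 17 substrates other than securin, 16 were matched and 14 were in the fit. At 22h against 0h, 2 rose (AURKB by 0.72 and GMNN by 0.59 on the log2 scale) and AURKA fell, with a log2 fold change of -1.08 (adjusted p = 0.0119, limma). The GMNN call, for the replication inhibitor geminin, was lost as TPM (0.57) and without 0h replicate 4 (0.48), 22h replicate 2 (0.51), or both 0h replicate 4 and 22h replicate 1 (0.52). At 46h against 22h, 4 rose (GMNN, SKP2, CKAP2 and SGO1) and 4 fell (CCNB2, CCNB3, AURKA and NEK2). At 46h against 0h, 6 rose (CCNB1, AURKB, GMNN, SKP2, CKAP2 and SGO1) and 3 fell (CCNB2, AURKA and NEK2). Of all genes, 9.87% were called higher and 32.6% lower at 46h against 22h, and 16.8% and 39.1% at 46h against 0h. At 22h against 0h these shares were 7.84% and 18.9%.

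Cyclin B2 (CCNB2), a partner of CDK1, had the largest change of the substrates, from 435 ± 172 FPKM at 0h and 458 ± 103 at 22h to 24.7 ± 3.62 at 46h, a log2 fold change of -4.14 in the second step (adjusted p = 3.96e-08, limma). The kinase AURKA fell from 1598 to 365.7 FPKM in mean over the whole period (-2.10, adjusted p = 2.07e-05), and the centrosome kinase NEK2 from 20.7 to 7.56 (-1.35, adjusted p = 1.06e-05, and -0.75 with quantile normalization). GMNN rose from 188 to 482 FPKM (1.36, adjusted p = 2.40e-06). The median log2 fold change of the 14 substrates was 0.08 at 46h against 0h, beside -0.250 over all genes. Calls in the 3 comparisons, in either direction, made up 26.7%, 42.4% and 55.9% of all genes, and the substrates called were 3, 8 and 9 of 14.

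The spindle checkpoint holds CDC20 until chromosomes are attached. Of 8 genes listed for holding or releasing CDC20, 7 were in the fit. No gene of the list passed at 22h against 0h (26.7% of all genes did), at adjusted p of 0.104 and above by limma. At 46h against 22h MAD2L1, which binds CDC20 directly, rose by 1.13 on the log2 scale (332 to 714 FPKM, adjusted p = 0.0023). BUB3, a partner in the same checkpoint complex, fell from 48.7 to 5.48 FPKM (-2.94, adjusted p = 4.55e-07) and MAD2L1BP, which helps to take the complex apart, from 12.4 to 1.86 FPKM (-2.17, adjusted p = 3.63e-06). TRIP13, the ATPase that works with MAD2L1BP, also fell (-0.89, adjusted p = 0.0411), a call that was lost in 11 of 23 alternatives, among them both median-of-ratios scaling and quantile normalization. The 1 rise and 3 falls among 7 stand beside 9.87% of all genes called higher and 32.6% called lower in that comparison.

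EMI proteins are themselves removed by the SCF ubiquitin ligase with its BTRC adaptor after phosphorylation by kinases. Of 9 genes listed for this step, all were matched and 7 were in the fit, while CAMK2A and CAMK2B were listed at 0 in every library. RBX1, the RING subunit of SCF, fell from 229 ± 9.42 FPKM at 22h to 31.1 ± 3.71 at 46h (-2.85, adjusted p = 1.20e-09, limma), BTRC from 12.7 to 4.38 FPKM (-1.35, adjusted p = 3.97e-06) and SKP1, the linker, from 683 to 342 FPKM (-0.99, adjusted p = 0.000329). CUL1, the SCF scaffold, rose at 22h against 0h (0.67, adjusted p = 0.0114), a call that was lost without 0h replicate 2 (0.58). FBXW11, CAMK2D and CAMK2G passed in no comparison. The 3 of 7 genes lower at 46h against 22h stand beside 32.6% of all genes called lower, and set nothing apart in this list.

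Separase acts on cohesin, and of 10 listed cohesin genes and protectors 9 were matched and 7 were in the fit. None passed at 22h against 0h (26.7% of all genes did), with the lowest adjusted p at 0.0503 by limma for STAG2. SGO2, the shugoshin that shields centromeric cohesin from separase, rose at 46h against 22h from 64.5 to 155 FPKM (1.27, adjusted p = 0.00689), as 1 of 7 genes of the list, where 9.87% of all genes were called higher. At 46h against 0h STAG2 (0.88, adjusted p = 0.00186) and SGO2 (1.26, adjusted p = 0.00479) were higher, 2 of 7 beside 16.8% of all genes, and STAG2 gave 1.54 with quantile normalization. REC8, the meiotic kleisin that separase cuts, was listed between 0 and 0.06 FPKM and STAG3 between 0.1 and 1.29 FPKM, both under the level of the fit.

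**Figure D5:**
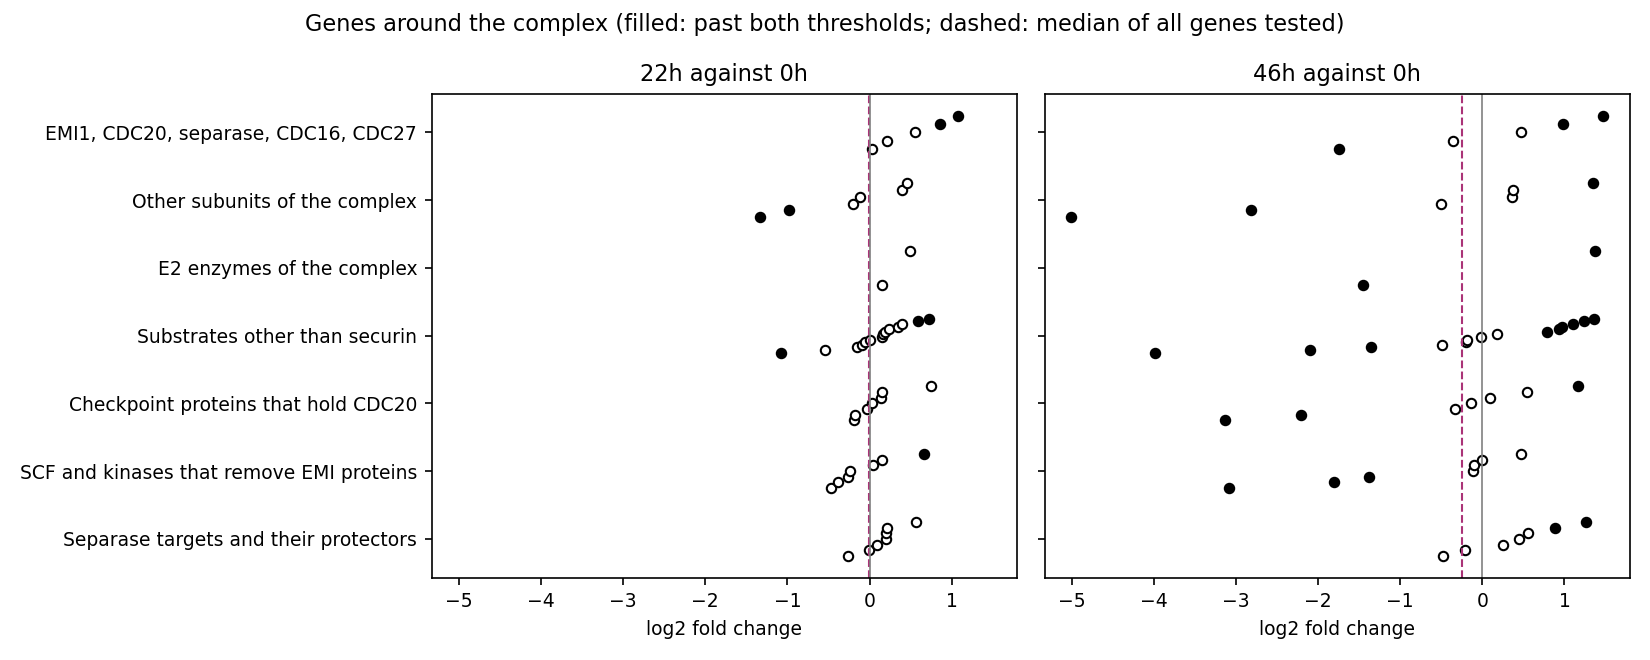
Log2 fold change (horizontal axis, on log2(FPKM + 1)) of every gene in the fit from the gene lists described here, at 22h and at 46h against 0h; filled points passed both thresholds and the dashed line is the median of all genes tested. Below the top row, 6 of 43 points are filled at 22h (26.7% of all genes were called) and 22 of 43 at 46h (55.9%), where filled points of the other subunits, E2 enzymes, substrates and checkpoint proteins lie on both sides of 0.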

How the data were processed

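RNA of porcine oocytes was measured in 12 libraries, 4 at each of 0h, 22h and 46h. The authors trimmed reads with Trim Galore, aligned them to Sscrofa11 with STAR and deposited 1 FPKM value per Ensembl gene from RSEM, rounded to 2 decimals; read counts were not used here, and the depth is not given in the sources used here. Since the files hold FPKM, the count test of the study's methods was replaced by limma.

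Of 31908 identifiers, 15029 were named from the reference annotation and 113 from symbols in the study's supplementary tables; 14275 were listed at 0 in all libraries. FBXO43 and PTTG1 were not analysed here. Values were taken as log2(FPKM + 1), and those of genes whose mean reached 1 FPKM entered a limma fit (version 3.58.1, R 4.3.3, lmFit then eBayes with trend) on stage alone over all 12 libraries, and two-sided p-values were adjusted by Benjamini-Hochberg over 7013 genes. Thresholds were an adjusted p under 0.05 and a fold change over 1.5. FZR1 and CDC23, under the filter, and the ratios of CDC27 and CDC16 to CDC23 were compared by exact permutation tests; other genes under the filter and other ratios were not tested. The fit was tested on simulated data.

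Named genes were all the genes of the report's list and, from each pathway list and comparison, at most 4 past the thresholds with values, by fold change, other genes past them being counted and in places named without a value; genes named for a missing call or for being listed near 0 were named after their values were seen. The genes and lists were chosen with earlier results of these data known. Alternatives were another pseudocount, other filters, scalings, sample sets, no trend, the replicate block and each library left out. Python 3.11.15, pandas 2.3.3, scipy 1.17.1, pysam 0.24.0 and matplotlib 3.10.9 were used.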

Additional observations from a re-analysis of the deposited data

Results flagged for a closer look

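CDC20 at 46h had 1 library far from the others: replicate 3 stood at 66.5 FPKM, and the other 3 lay between 39.66 and 42.63 FPKM. The gap to the next library took up 0.889 of the range of the stage, above the critical value of Dixon's test for 4 samples. Of 21 groups checked (7 genes in 3 stages) this was the only one past that value, and chance gives about 1 in 20. In the same library FBXO5 and CDC27 had their lowest 46h values, 74.9 and 47.7 FPKM, and the FBXO5 to CDC20 ratio of 1.13 was the lowest of all 12 libraries.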

How the results depend on the processing

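The calls of FBXO5, CDC20, ESPL1 and CDC16 were the same in every alternative in which the gene was tested, and those of CDC27 changed as given above: at 46h against 22h median-of-ratios scaling (0.61) and quantile normalization (0.59) brought it past the thresholds too. With a mean of at least 5 FPKM, ESPL1 left the fit, so that 1 gene of the list passed at 22h against 0h, and 2546 in place of 3922 genes passed at 46h against 0h, fewer genes being tested. Signs turned only for differences that passed nowhere, and the cause was not tested. For CDC16 at 22h against 0h the log2 fold change was -0.19 without 0h replicate 4, -0.01 without 22h replicate 2, -0.11 without 22h replicate 4 and -0.12 without both 0h replicate 4 and 22h replicate 1, in a range of -0.19 to 0.15 (without 22h replicate 3) when each library was left out. For CDC20 at 46h against 22h it was 0.25 with median-of-ratios scaling, 0.29 with quantile normalization, 0.12 without 22h replicate 3 and 0.04 without 22h replicate 4, in a range of -0.38 (without 22h replicate 1) to 0.12. For ESPL1 at 46h against 0h it was 0.33 with quantile normalization (adjusted p = 0.0734, limma). Quantile normalization kept the following calls but moved their values by over 1.5 times: ANAPC11 (-0.98), BTRC (-0.84) and UBE2D1 (1.33) at 46h against 22h and BTRC (-1.19) at 46h against 0h, besides those given above; SKP1 at 46h against 22h was -0.64 with median-of-ratios scaling, and FZR1 at 46h against 0h was -2.86 with a pseudocount of 0.1 FPKM. With the replicate block, 1801, 2933 and 3894 genes passed in place of 1873, 2975 and 3922, and no call of the list changed. After removal of stage means, libraries that share a number gave r of -0.466 to 0.381 (12 pairs, 3 over 0.1). Libraries with different numbers gave r of -0.428 to 0.532 (36 pairs, 12 over 0.1). The labels do not say whether the number pairs libraries. These values cannot decide it, since libraries of a shared batch need not deviate together. For FZR1, leaving out 1 library leaves 3 against 4, whose smallest exact permutation p of 0.0571 was the value in all 16 such tests of the comparisons with 46h. The ratio of CDC16 to CDC23 reached an exact permutation p of 0.0286 at 46h against 22h with a pseudocount of 0.1 or 1 FPKM and at 46h against 0h with 1 FPKM. The libraries 0h replicate 4 and 22h replicate 1 were left out together after seeing the data. The depth behind single values, FZR1 and CDC23 above all, is unknown.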

Other observations

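The genes whose course over the 12 libraries was most like that of each fitted gene were sought among 6212 named genes, by Pearson's r of log2(FPKM + 1). All points share their library and its scaling, and the 12 libraries are 3 stages of 4, so r includes the differences between stages. The values are a description. FBXO5 was most like INTS12 (r = 0.985), ELOVL7 (0.982) and SNAP23 (0.981). CDC20 was most like DPF2 (0.972), AURKB (0.968), the kinase of the chromosomal passenger complex, and PEF1 (0.967). ESPL1 was most like ATG16L1 (0.985), MTMR3 (0.979) and COG3 (0.975), and CDC16 was most like MTBP (0.971), C21orf91 (0.967) and PNPT1 (0.962). CDC27 had weaker matches, led by KIAA0586 (0.942), RBBP8 (0.940) and CASP8AP2 (0.923). Among the fitted genes of the list, the strongest values were -0.712 for ESPL1 and CDC16 and -0.642 for FBXO5 and CDC16. CDC16 and CDC27 had an r of 0.614 and FBXO5 and ESPL1 0.532, each over 12 libraries. The weakest was -0.0678, for FBXO5 and CDC20.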
